A study of Homo sapiens with 16 samples.

Results

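This account covers AIB1-bound regions at the NBPF1, NBPF10, PDE4DIP, NOTCH2NLA and NOTCH2NLR genes of human chromosome 1. AIB1 is the nuclear receptor coactivator encoded by NCOA3, and chromatin immunoprecipitation sequencing (ChIP-seq) with an AIB1 antibody was carried out in MCF10A-D4, MCF10A, MCFDCIS-D4 and MCFDCIS cells. MCF10A is a non-tumorigenic mammary epithelial line, and MCFDCIS is a line related to it that models ductal carcinoma in situ. The labels give 3 ChIP samples and 1 input sample to each of the 4 groups, and they say neither how the D4 lines were made nor whether a line is a single clone. All cells were grown in medium with EGF, hydrocortisone, cholera toxin and insulin. The authors deposited 1 list of genomic regions, called clusters here, per group, in the human genome build hg19 (GRCh37) and without values per replicate, so no replicate error can be given. The sample descriptions of one line cite the lists named after the other, so lists are called by the name they carry and by D4 or parental status. A cluster was taken as a member if it overlapped the body of 1 of the 5 genes or lay within 100 kb of its canonical transcription start site (TSS). That gave 19 of 897 distinct clusters, which fill 26 places in the lists. The genes were grouped as duplicated loci and chosen by the presence of clusters in these lists. Counts, widths and ranks of the members are therefore a description and were not tested. The member farthest from a start outside a gene body lay at 95.5 kb, those inside PDE4DIP reached 143.8 kb, and the nearest cluster left out lay 439.7 kb from a start.

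These genes belong to the families that multiplied on chromosome 1 during recent primate evolution. NBPF genes carry arrays of the Olduvai domain, formerly DUF1220, a protein repeat whose copy number is highest in humans. NOTCH2NL genes are partial copies of NOTCH2 that enhance Notch signalling in progenitors of the human cortex. PDE4DIP encodes myomegalin, a scaffold at the centrosome and Golgi that binds the cyclic AMP phosphodiesterase PDE4D. Short reads from such sequence can match several places of a reference genome, so each cluster was searched for other close matches.

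The sequences below, read from GRCh37, show the copies closest to the clusters, with capitals marking the bases that differ between a cluster and its copy. The first pair is the centre of the cluster within the NOTCH2NL genes, at chr1:145219656-145219855 on the plus strand, and its copy in NOTCH2, at chr1:120601580-120601779 on the minus strand.
NOTCH2NL cluster: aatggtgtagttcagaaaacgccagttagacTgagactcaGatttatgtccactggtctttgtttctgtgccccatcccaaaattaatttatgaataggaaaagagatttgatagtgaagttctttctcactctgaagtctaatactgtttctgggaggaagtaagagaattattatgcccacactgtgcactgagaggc
NOTCH2 copy: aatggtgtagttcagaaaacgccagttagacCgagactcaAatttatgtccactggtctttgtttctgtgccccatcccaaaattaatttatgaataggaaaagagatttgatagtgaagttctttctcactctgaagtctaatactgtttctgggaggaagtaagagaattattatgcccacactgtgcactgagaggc

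Only 2 of these 200 bases differ. The second pair shows the NBPF1 cluster with the most copies, at chr1:16893131-16893230 on the plus strand, and its closest other place, at chr1:145365903-145366002 on the minus strand.
NBPF1 exons 25 and 26: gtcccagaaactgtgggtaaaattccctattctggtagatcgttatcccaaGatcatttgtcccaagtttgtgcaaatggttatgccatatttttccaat
Closest other place: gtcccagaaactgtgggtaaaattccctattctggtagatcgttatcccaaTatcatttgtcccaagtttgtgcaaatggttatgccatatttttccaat

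Here 1 of 100 bases differs. The third pair shows a cluster over NBPF1 exons 3 and 4, at chr1:16920806-16920955 on the plus strand, and its copy in the related gene NBPF3, at chr1:21792782-21792931 on the minus strand.
NBPF1 exons 3 and 4: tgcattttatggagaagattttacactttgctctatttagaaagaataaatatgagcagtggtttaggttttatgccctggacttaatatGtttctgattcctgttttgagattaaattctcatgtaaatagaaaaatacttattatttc
NBPF3 copy: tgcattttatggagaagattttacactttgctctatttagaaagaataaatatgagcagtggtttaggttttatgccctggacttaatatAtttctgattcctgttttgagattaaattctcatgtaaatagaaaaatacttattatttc

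Here 1 of 150 bases differs. The next pair involves another chromosome. The cluster in CROCCP2, a pseudogene of the ciliary rootlet gene CROCC that lies upstream of NBPF1, is shown at chr1:16970456-16970555 on the plus strand. Its copy lies at MST1, the gene of macrophage stimulating protein, at chr3:49727648-49727747 on the minus strand, and differs at 3 of 100 bases.
CROCCP2 cluster: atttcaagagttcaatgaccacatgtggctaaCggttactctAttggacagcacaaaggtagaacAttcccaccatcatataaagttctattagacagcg
MST1 copy: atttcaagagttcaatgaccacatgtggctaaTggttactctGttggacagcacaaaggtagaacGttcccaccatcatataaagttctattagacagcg

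By contrast, the 210 bp cluster in intron 8 of PDE4DIP, at chr1:144929451-144929660, had no other close match in GRCh37. It is shown whole, on the plus strand, as an example of sequence without another close match in that build.
PDE4DIP intron 8: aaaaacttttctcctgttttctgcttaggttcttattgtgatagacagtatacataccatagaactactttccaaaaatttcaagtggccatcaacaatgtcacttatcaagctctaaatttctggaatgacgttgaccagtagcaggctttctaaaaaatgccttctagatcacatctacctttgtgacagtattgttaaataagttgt

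The genes were grouped as duplicated loci, so more other matches than elsewhere could come from that choice alone. The shares are a description and were not tested. Another match was counted when at least 90 of the central 100 bases of a cluster aligned elsewhere at 95% identity or more. It was found for 5 of the 19 clusters (26.3%), against 28 of the other 878 (3.19%) and 3.68% of all clusters. With the central 500 bases it was found for 7 of 19 (36.8%), against 18 of 878 (2.05%) and 2.79% of all. The 7 comprised 6 of the 7 clusters at NBPF1 and 1 of the 12 on the long arm. None (0) of the 10 clusters whose nearest start was that of PDE4DIP had such a match over 500 bases. Over the central 100 bases 1 of those 10 did, the intron 1 cluster, with 3 other places. This cluster, 1 of the 5 counted above, had 498 other places at 90% identity and 0 at 98%. Some clusters outside the members had such matches too. The wide clusters from chr2:91759851-91764710 to chr2:91813101-91821860 each had 1 other place over the central 100 bases. All but the last of them also had 1 over 500 bases. On chromosome 1, the clusters from chr1:148675951-148675960 to chr1:149285751-149285910 had, in order, 3, 1, 2, 1, 0, 3, 0 and 1 other places over 100 bases. Over 500 bases they had 3, 0, 1, 1, 0, 0, 1 and 1. Such matches were thus not particular to the members.

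**Figure D1:**
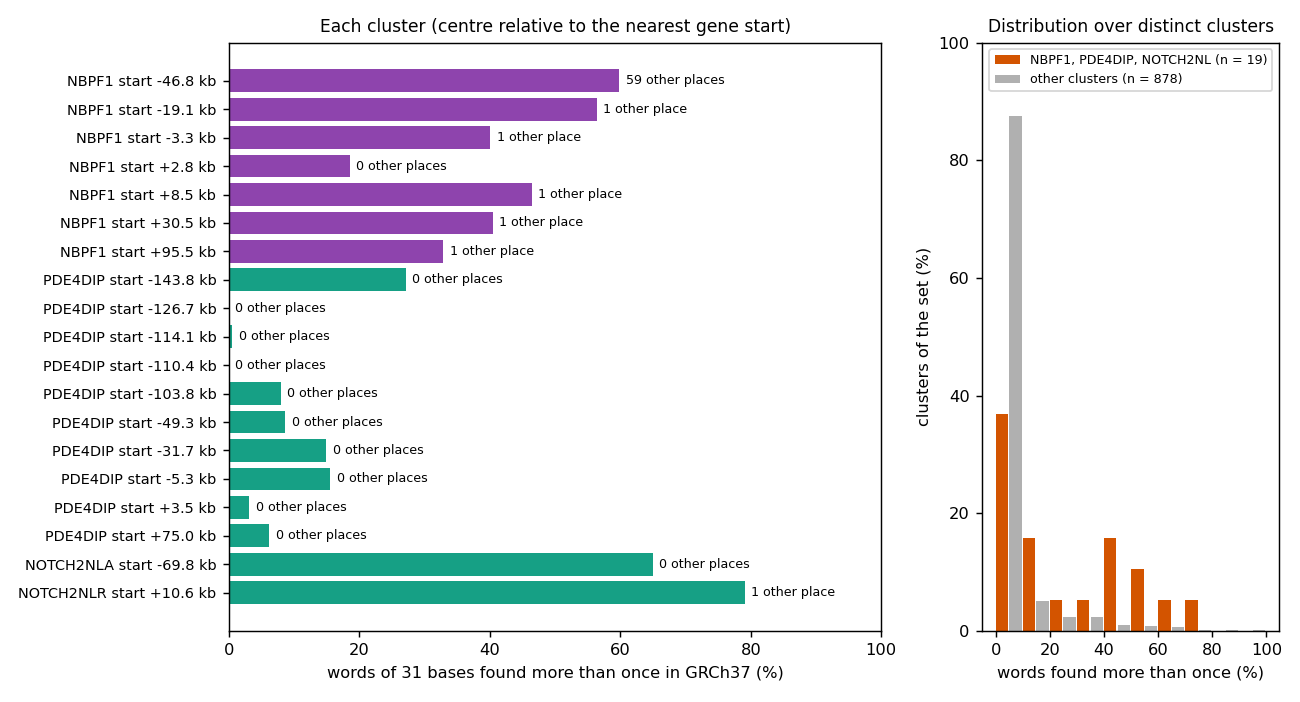
Left, share of words of 31 bases in each of the 19 clusters that occur more than once in GRCh37 on either strand, with the number of other places that match the central 500 bases; labels give the distance of the cluster's centre from the nearest gene start along the chromosome, purple marks the NBPF1 locus and green the long arm. Right, share of distinct clusters by repeated words, for the 19 clusters and the other 878; the 19 spread up to 79.1%, and the other clusters gather in the lowest class.

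Exact words gave the same division, and the limit set by the grouping as duplicated loci holds for them too. A median of 18.5% of the words of 31 bases in a member cluster occurred more than once in the genome, against 0% for the other clusters. The median was 40.5% at the NBPF1 locus and 7.06% for the clusters nearest PDE4DIP. The gene bodies differed too. Over bins of 1 kb the mean share of repeated words was 63.9% in NBPF1, 85.3% in NBPF10, 78.7% in NOTCH2NLA, 80.0% in NOTCH2NLR and 32.1% in PDE4DIP. In PDE4DIP 66 of 241 bins held over 50% of repeated words, against 39 of 53 in NBPF1. The plot of the loci shows a repeated block within PDE4DIP that holds no cluster.

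The annotation of these families differs between genome builds. In the annotation lifted to GRCh37, PDE4DIP and its pseudogene PDE4DIPP2 occupy the same stretch, as do NOTCH2NLA, NOTCH2NLR, NOTCH2NLB, NOTCH2NLC and NBPF10, and also SEC22B with its pseudogenes SEC22B2P, SEC22B3P and SEC22B4P. All 8 such pairs compared overlap in the lifted annotation, and all 8 have separate places in RefSeq for GRCh38.p14. The canonical transcript of NBPF10 had 7 candidate placements in the lift and that of NOTCH2NLR 2. The number of matches given here is that in GRCh37 only, and a cluster within the NOTCH2NL stretch cannot be assigned to 1 of these genes. The place of PDE4DIPP2 in GRCh38 was not searched. Clusters in the stretch it shares with PDE4DIP, such as the printed intron 8 cluster, are not known to be single-copy.

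**Figure D2:**
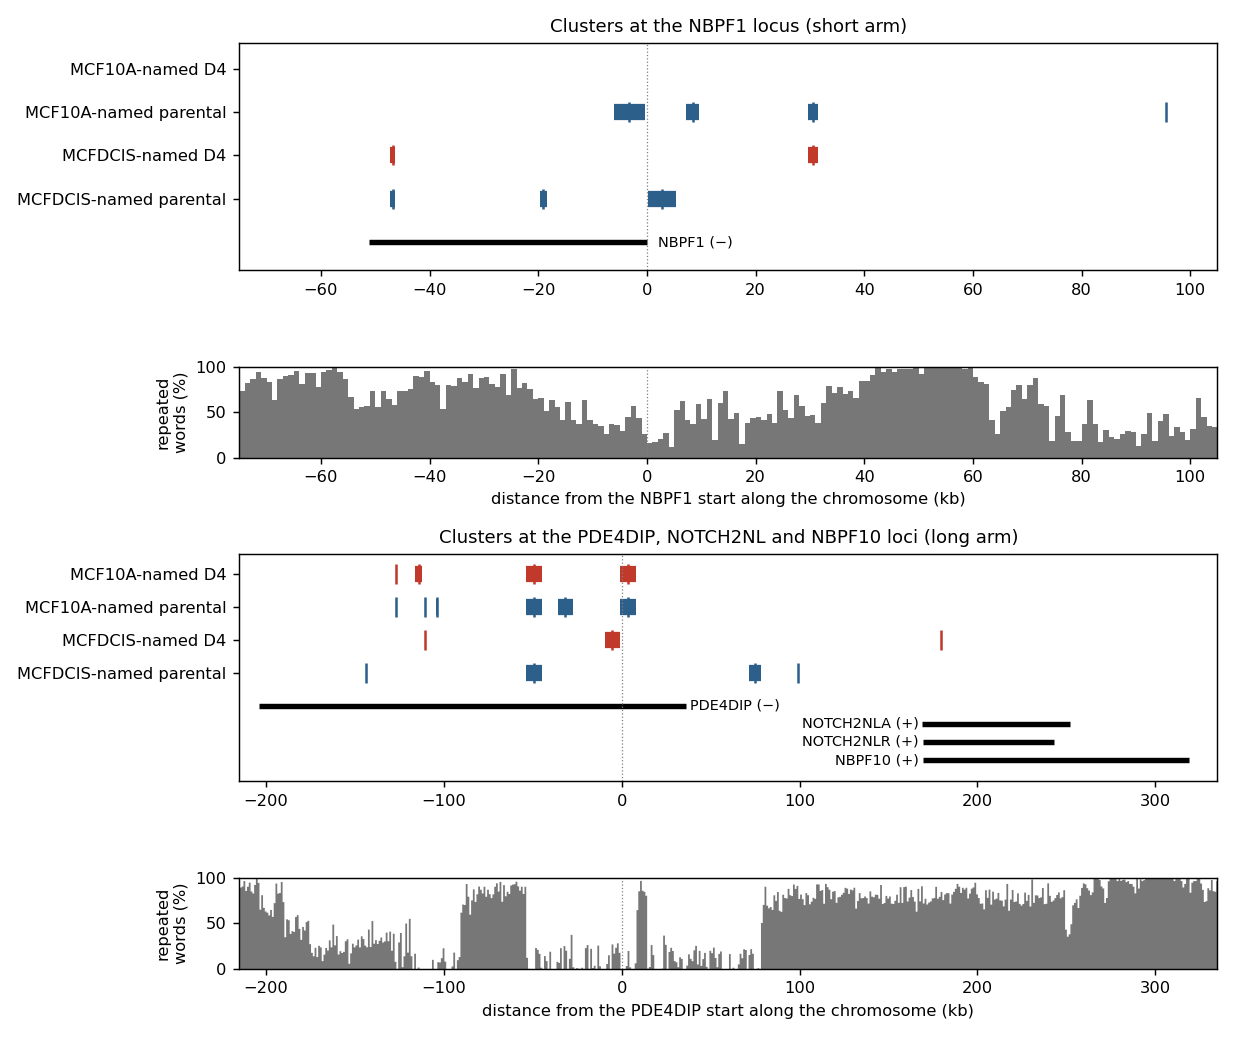
Clusters of the 4 lists at the NBPF1 locus (upper panels) and at the PDE4DIP, NOTCH2NL and NBPF10 loci (lower panels), drawn to scale as bars with a tick at the centre, D4 in red and parental in blue, against distance from the NBPF1 or PDE4DIP start along the chromosome in kb; black lines are gene bodies with their strand. The grey panels give the share of words of 31 bases in each 1 kb bin that occur more than once in GRCh37, which averages 63.9% over NBPF1 and 32.1% over PDE4DIP.

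NBPF1, on the short arm at chr1:16888814-16940057, is transcribed from the minus strand and had 7 distinct clusters within the window. They numbered 0 in the MCF10A-named D4 list and 4 in its parental list, and 2 in the MCFDCIS-named D4 list and 3 in its parental list. No NBPF1 cluster was shared by the 2 parental lists. Either side of the TSS carried a wide cluster in a different parental list. A 5660 bp cluster at chr1:16933901-16939560 over exon 2 ended 0.422 kb inside the gene and was MCF10A-named parental, and a 5110 bp cluster at chr1:16940251-16945360 began 0.269 kb upstream and was MCFDCIS-named parental. In the authors' deposited table their scores were 8.77, at rank 359 of 490, and 8.74, at rank 572 of 651. What the score measures is not said in the files, so it serves here only for ranks inside a list.

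Of the 7 NBPF1 clusters, 1 was shared by a D4 list and the parental list of the same name. It covered exons 25 and 26 of 29, at chr1:16892651-16893710, 1060 bp wide. In the authors' deposited table it scored 13.6 in the MCFDCIS-named D4 list, at rank 8 of 99, and 15.1 in the MCFDCIS-named parental list, at rank 418 of 651. The whole cluster had 59 other places at an identity of 96.7% to 97.8%, all on chromosome 1, and 51 of them lay in genes or pseudogenes named NBPF. The cluster over exons 3 and 4, at chr1:16920251-16921510 in the MCFDCIS-named parental list only, matched NBPF3 at 97.5% over its whole length. The exon 2 cluster matched NBPF3 at 94.8% and NBPF15 at 91.2%.

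The remaining NBPF1 clusters lay upstream, in pseudogenes. The CROCCP2 cluster at chr1:16969551-16971460, 1910 bp wide and 29.6 kb from the TSS, was listed in MCFDCIS-named D4 and MCF10A-named parental and in neither of the others. In the authors' deposited table it scored 8.03 in that D4 list and 13.4 in that parental list. Its whole length matched the MST1 locus at 96.3%. A 2410 bp cluster at chr1:16947251-16949660, also in CROCCP2, and a 10 bp cluster at chr1:17035501-17035510, in the espin pseudogene ESPNP, were in the MCF10A-named parental list alone. The 500 bases around the ESPNP cluster matched ESPN, which encodes an actin-bundling protein of hair cells, at 96.4%.

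PDE4DIP, at chr1:144836157-145076227 on the minus strand, was the gene with the most clusters, 11 within the window. They numbered 4 in the MCF10A-named D4 list and 6 in its parental list, and 2 in the MCFDCIS-named D4 list and 4 in its parental list. Of these, 9 lay within the gene. The canonical start was covered by an 8760 bp cluster at chr1:145039101-145047860, in the MCF10A-named D4 and parental lists. In the authors' deposited table it scored 12.8 in the D4 list, at rank 21 of 138, and 12.1 in the parental list, at rank 242 of 490. The sequence around this start, at chr1:145039907-145040056 on the minus strand, is shown with the annotated first base in capitals.
PDE4DIP start: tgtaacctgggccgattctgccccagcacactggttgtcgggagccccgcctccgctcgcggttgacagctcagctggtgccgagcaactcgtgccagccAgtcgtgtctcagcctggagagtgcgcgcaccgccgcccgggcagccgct

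The MCFDCIS-named D4 list had instead the neighbouring stretch inside the gene. Its cluster at chr1:145030301-145039060 in intron 1 was also 8760 bp wide, ended 0.896 kb from the start and was separated from the start cluster by 40 bp. It was in no other list, and in the authors' deposited table it scored 8.03, at rank 80 of 99. The MCFDCIS-named parental list had neither of these clusters.

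The first part of PDE4DIP held 4 clusters over 8 kb wide. Another 8760 bp cluster, at chr1:144986251-144995010 over exon 4, was the only member cluster in 3 lists. Its scores in the authors' deposited table were 9.03 in MCF10A-named D4, 7.50 in MCF10A-named parental and 9.80 in MCFDCIS-named parental. An 8610 bp cluster in intron 3, at chr1:145004001-145012610, was in the MCF10A-named parental list alone. The starts of these 4 clusters were 17.75, 26.3 and 8.8 kb apart, which is close to 2, 3 and 1 steps of the cluster width. Such spacing was not particular to PDE4DIP. On chromosome 2, clusters of 8710, 8710 and 8760 bp lay side by side at chr2:91795601-91804310, chr2:91804351-91813060 and chr2:91813101-91821860.

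The body of PDE4DIP held smaller clusters that differed between lists. Intron 8 of the canonical transcript, which has 48 exons, held 3 clusters. The MCF10A-named D4 list had the 3760 bp cluster at chr1:144924001-144927760, the MCFDCIS-named D4 and MCF10A-named parental lists had the 210 bp cluster printed above, and the MCF10A-named parental list had the 1010 bp cluster at chr1:144935701-144936710. The 210 bp cluster scored 7.11 in that D4 list of the authors' deposited table, the lowest score there, and 14.4 in that parental list. A 10 bp cluster in intron 17 was in the MCF10A-named D4 and parental lists, and a 10 bp cluster in intron 24 was in the MCFDCIS-named parental list alone.

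NOTCH2NLA, NOTCH2NLR and NBPF10 shared 1 cluster within their bodies. It was 910 bp wide, at chr1:145219301-145220210, 10.15 kb from the nearest start, in intron 2 of NOTCH2NLR, and in the MCFDCIS-named D4 list alone. It scored 10.5 in the authors' deposited table, at rank 25 of 99. Its full length matched NOTCH2 at 99.0%, and NOTCH2 itself had no listed cluster. The window of NOTCH2NLA and NOTCH2NLR held another 2 clusters, both in the MCFDCIS-named parental list alone and both also within 100 kb of the PDE4DIP start. A 6760 bp cluster at chr1:145111601-145118360 lay in SEC22B, a vesicle trafficking gene, and a 110 bp cluster at chr1:145139251-145139360 in NUDT4B, a gene of the NUDIX hydrolase family. The MCF10A-named lists had 0 clusters at these genes.

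Per list, the 5 genes accounted for 4 of 138 MCF10A-named D4 clusters (2.90%) and 10 of 490 parental ones (2.04%), and for 5 of 99 MCFDCIS-named D4 clusters (5.05%) and 7 of 651 parental ones (1.08%). Because these clusters were wide, they made up a larger part of the covered sequence. This was 15.0% in the MCF10A-named D4 list and 10.7% in its parental list, and 18.2% in the MCFDCIS-named D4 list and 5.59% in its parental list.

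The overlap between lists was compared next. For the MCF10A-named lists 3 of 4 D4 members were also parental, beside 48.6% of all D4 clusters, and 3 of 10 parental members were also D4, beside 13.7% of all parental clusters. In the MCFDCIS-named pair 1 of 5 D4 members was also parental, beside 65.7%, and 1 of 7 parental members was also D4, beside 9.98%. Across line names, 1 of 4 MCF10A-named D4 members was in MCFDCIS-named parental, beside 39.9%, and 2 of 5 MCFDCIS-named D4 members were in MCF10A-named parental, beside 39.4%. The D4 lists shared 0 of their 4 MCF10A-named and 5 MCFDCIS-named members, beside 6.52% and 9.09% of all their clusters. The 2 parental lists shared 1 member, the PDE4DIP exon 4 cluster. That was 10.0% of the 10 MCF10A-named members, beside 62.7% of all clusters of that list, and 14.3% of the 7 MCFDCIS-named members, beside 47.2%. In all, 13 of the 19 clusters were in 1 list, 5 in 2 lists, 1 in 3 lists and 0 in 4 lists. Of the other 878 clusters, 458 were in 1 list, 372 in 2 lists, 42 in 3 lists and 6 in 4 lists.

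The shares of wide, low-scored or duplicated clusters elsewhere are given for comparison. Of the other clusters over 500 bp, 48 of 99 (48.5%) MCF10A-named and 48 of 121 (39.7%) MCFDCIS-named parental clusters were in the other parental list. Of those over 500 bp that were also not above the median score of their list, 21 of 61 (34.4%) and 23 of 83 (27.7%) were. Of those with another match of the central 100 bases, 7 of 18 (38.9%) and 7 of 15 (46.7%) were. The member values were 10.0% and 14.3%, both resting on a single shared cluster, and no test was made.

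**Figure D3:**
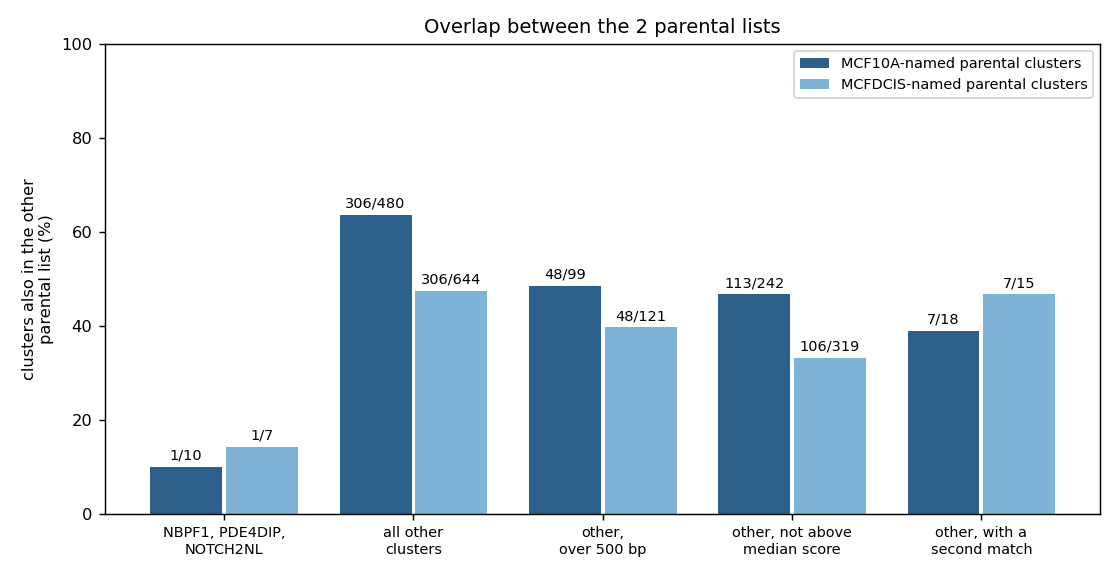
Share of the clusters of each parental list that overlap a cluster of the other parental list by at least 1 bp, for the NBPF1, PDE4DIP and NOTCH2NL clusters and for the other clusters, whole and in 3 subsets; numbers above the bars are shared clusters over clusters in the set. The loci share 1 of 10 and 1 of 7, the other clusters 306 of 480 and 306 of 644.

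The clusters at these loci were wide. Over 500 bp were 14 of 19 (73.7%), against 184 of 878 other clusters (21.0%) and 22.1% of all. In the MCF10A-named lists 3 of 4 D4 and 7 of 10 parental members exceeded this width, beside 28.3% and 21.6% of all clusters of those lists. In the MCFDCIS-named lists 4 of 5 D4 and 5 of 7 parental members did, beside 25.3% and 19.4%. Median widths were 6260 bp in MCF10A-named D4 and 2160 bp in MCF10A-named parental members, and 1060 bp in MCFDCIS-named D4 and 1260 bp in MCFDCIS-named parental members. Medians of the other clusters ranged from 60 to 110 bp. Over 5 kb were 7 of the 19 members (36.8%), against 39 of 878 others (4.44%) and 5.13% of all. Wide clusters were not particular to the members. On chromosome 2, the clusters from chr2:91759851-91764710 to chr2:91813101-91821860 were 4860, 8610, 8710, 8710 and 8760 bp wide, each with another match over 100 bases. Dense domains elsewhere also had wide clusters. Over 500 bp were 61 of 122 clusters in the domain around MYC on chromosome 8, 42 of 82 (51.2%) in a domain on chromosome 10 and 32 of 56 (57.1%) in a domain on chromosome 17. Over 5 kb were 23 of 122 (18.9%), 5 of 82 (6.10%) and 3 of 56 (5.36%) in these domains. Another match of the central 100 bases was found for 2 of 122 (1.64%), 1 of 82 (1.22%) and 1 of 56 (1.79%).

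Ranks differed by list. All 4 members of the MCF10A-named D4 list lay above its median score, with a median percentile of 62.8 against 30.7 for the other clusters. In MCF10A-named parental 3 of 10 did, with 37.3 against 49.3. In MCFDCIS-named D4 2 of 5 did, with 17.3 against 44.9, and in MCFDCIS-named parental 0 of 7 did, with 22.0 against 50.5. The MCFDCIS-named D4 value depended on the members counted. With a window of 25 kb it was 44.9, the same as for the other clusters. Without clusters that have another match only the 210 bp PDE4DIP intron 8 cluster was left, at percentile 0. Among clusters over 5 kb alone, the median percentile was 72.6 for 2 members against 62.8 for 9 others in MCF10A-named D4, and 37.3 for 4 members against 35.4 for 21 others in MCF10A-named parental. It was 17.3 for 1 member against 78.1 for 4 others in MCFDCIS-named D4, and 16.9 for 3 members against 48.2 for 30 others in MCFDCIS-named parental. The highest score of a member in the authors' deposited table was 12.8 for MCF10A-named D4, 14.4 for MCF10A-named parental, 13.6 for MCFDCIS-named D4 and 15.6 for MCFDCIS-named parental, against list maxima of 42.1, 96.5, 25.5 and 191.5. Ranks within separate lists of different length cannot show whether anything changed between groups. Ties were common, and 22 of the 138 MCF10A-named D4 clusters in the authors' deposited table, 2 members among them, had a score of 9.24. A percentile is the share of other clusters in the list with a lower score, so tied clusters take the lowest value of their tie. In that list the median scores were 9.24 for members and 8.38 for the other clusters.

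**Figure D4:**
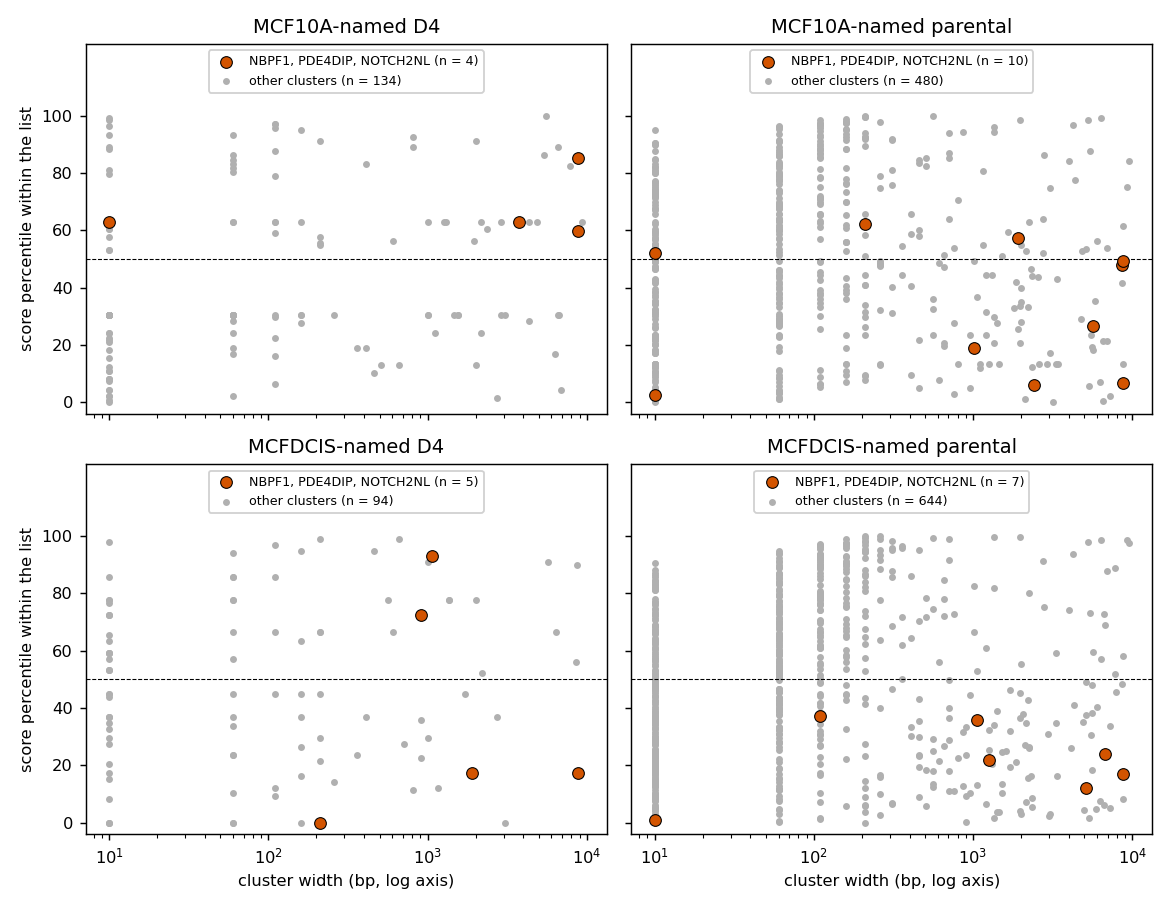
Width of each cluster (bp, log axis) against the percentile of its score within its own list, for the 4 lists, with the NBPF1, PDE4DIP and NOTCH2NL clusters in orange and the other clusters in grey; the dashed line marks the 50th percentile. In the MCFDCIS-named parental list all 7 orange points lie below the line, and in the MCF10A-named D4 list all 4 lie above it.

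Motif letters, GC content and distance to assembly gaps were not used by the rule that picked clusters at these genes. The genes themselves were grouped as duplicated loci, so these values need not be independent of that choice. The AP-1 letters TGANTCA, which FOS and JUN proteins bind, were sought on both strands in the central 500 bases. They were in 1 of 19 members (5.26%), against 300 of 878 other clusters (34.2%) and 33.6% of all. Among other clusters over 500 bp the share was 22.8% (42 of 184), and among other clusters with another match it was 7.14% (2 of 28). The stricter TGACTCA, whose matches are all matches of TGANTCA, was in 0 of 19 members and in 225 of 878 (25.6%) others, 25.1% of all. The letters of the glucocorticoid response element (ACA and TGT with 3 bases of any kind between them, and a G before and a C after, each 1 base away) were in 0 of 19 members against 63 of 878 (7.18%) others, 7.02% of all, but also in 1.09% (2 of 184) of other clusters over 500 bp. The TEAD letters GGAATG were in 7 of 19 (36.8%), close to the 308 of 878 (35.1%) of the others and 35.1% of all. Median GC content was 37.4% in members and 46.2% in the others. Absence of a match says only that these letters are not in this window.

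The single member with AP-1 letters was the 10 bp cluster in intron 17 of PDE4DIP, at chr1:144913251-144913260, found in the MCF10A-named D4 and parental lists. Its central 500 bases held the letters 2 times. The upstream match, at chr1:144913245-144913251, ended on the first base of the cluster and lay otherwise outside it. Its scores in the authors' deposited table were 9.24 in the D4 list and 12.6 in the parental list. The stretch at chr1:144913215-144913505 on the plus strand is shown with these letters in capitals.
PDE4DIP intron 17: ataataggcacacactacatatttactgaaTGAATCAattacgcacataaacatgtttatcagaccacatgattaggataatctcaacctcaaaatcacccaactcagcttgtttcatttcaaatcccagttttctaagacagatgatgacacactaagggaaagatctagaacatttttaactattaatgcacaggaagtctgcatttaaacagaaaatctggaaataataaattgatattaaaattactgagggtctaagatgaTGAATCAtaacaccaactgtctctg

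All 19 members lay within 500 kb of an assembly gap of at least 1 kb, at 85.4 to 408.6 kb, with a median of 180.3 kb. Of the other clusters 57 of 878 (6.49%) did, 8.47% of all, and the median distance of the 878 was 11260 kb. The 57 include every cluster from chr2:91759851-91764710 to chr2:91813101-91821860, at 164.7 to 218.0 kb. They also include every cluster from chr1:148675951-148675960 to chr1:149285751-149285910, at 7.3 to 226.9 kb. All of these but chr1:149222651-149225360 also have another match over 100 or 500 bases. Nearness to a gap was thus not particular to the members. Of the 19 members 7 lie at the NBPF1 locus and 12 on the long arm, so they are not 19 independent outcomes. The part of gaps, of copies absent from GRCh37 and of copy number in these cell lines in the presence of clusters was not tested.

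The other places of the member sequences were not listed. Over their whole length, or over 500 bases for narrower clusters, 7 of the 19 members had another place with at least 90% identity, 67 places in all. Of these, 54 lay in genes or pseudogenes named NBPF, and 0 of 67 overlapped a cluster of any list. A lack of listing at a copy says nothing of its binding, since the treatment of reads with several matches is not stated in the labels.

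Relatives and partners of these genes were examined with the same rule, by which 7.04% of 18912 protein-coding genes (1331) had a cluster in any list. Of 13 other NBPF and NOTCH2 family genes, 3 had a cluster, NBPF9, NOTCH2NLB and NOTCH2NLC, in each case member clusters already counted. Thus 0 of 13 had a cluster outside the members. The cluster at chr1:145219301-145220210 lies within NOTCH2NLB and NOTCH2NLC as well and cannot be assigned to 1 gene. The 13 do not cover every relative, and NBPF16 was not examined. Of 22 Notch pathway genes examined, 3 had a cluster, all in the MCFDCIS-named parental list alone, where 6.39% of protein-coding genes had one. They were HES1, a transcriptional repressor induced by Notch, at 46.4 kb, MAML1, a coactivator of the Notch complex, at 86.7 kb, and NUMBL, a relative of the Notch inhibitor NUMB, at 25.7 kb. Of 8 genes of the PDE4 and centrosome partners of PDE4DIP, 0 had a cluster in any list. With lists of 22 and 8 genes and no test, nothing is read from these counts.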

How the data were processed

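AIB1 ChIP-seq values were set against cell lysate input, per the series' design text, and coordinates are hg19 (GRCh37), per the submitters' processing notes. No source used here gives the aligner, caller, threshold, pooling or treatment of reads with several matches, so depth is unknown. The score in column 5, as deposited by the authors, served only for ranks and filters inside 1 list. Genes came from GENCODE release 44 lifted to GRCh37, with the Ensembl canonical transcript start. The members, gene lists and comparisons were chosen with earlier results of these data known, and the subsets of other clusters, the stricter AP-1 letters and the gap distance after the values were seen. The 4 lists hold 1378 rows and 897 distinct clusters, which do not overlap each other. Sharing meant an overlap of at least 1 bp. Other matches were sought in the GRCh37 primary assembly with minimap2 2.31-r1302 (at least 90 of 100 or 450 of 500 bases at 95% identity). Exact words of 31 bases were counted as well. Both were tried on a simulated random sequence with planted single copies of 100 bases. Searches with 500 bases or whole clusters, and sequence rich in repeats, were not simulated. Genes on chromosomes 20, 21 and 22 and NBPF19, NBPF26 and SRGAP2B were not analysed here. All 5 genes and their clusters are named. Of the gene lists examined, all genes with a cluster are named, and others only as copies, as background or as not analysed. Python 3.11.15, numpy 2.4.6, pandas 2.3.3, pysam 0.24.0 and samtools 1.23.1 were used.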

Additional observations from a re-analysis of the deposited data

How the results depend on the processing

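No paired analysis was possible because each group is a single list without values per replicate, and for the same reason no replicate could be left out. Of 63 alternatives, 41 stayed within 1.5 times of the reported value and 22 did not. Without PDE4DIP, MCF10A-named D4 had 0 members, MCFDCIS-named D4 3 and MCF10A-named parental 4. Without NBPF1 MCFDCIS-named D4 had 3, MCF10A-named parental 6 and MCFDCIS-named parental 4. Counting gene bodies alone, the MCFDCIS-named parental list had 4. With scores above the list median, members numbered 2 for MCFDCIS-named D4, 3 for MCF10A-named parental and 0 for MCFDCIS-named parental, and D4 members also parental numbered 1 (MCF10A-named) and 0 (MCFDCIS-named). Members with another match numbered 3 at 98% identity, 8 at 90% identity and 3 among those above a list median. Among clusters of at most 500 bp the median widths were 10 bp in both MCF10A-named lists, 210 bp in the MCFDCIS-named D4 and 60 bp in the MCFDCIS-named parental list. In each D4 list this was the width of a single cluster. With a 25 kb window the MCFDCIS-named D4 median percentile was 44.9 and the MCF10A-named parental median width 4035 bp. Without clusters with another match the MCFDCIS-named D4 median percentile was 0, the value of the only member left. The cause was not tested.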

Other observations

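Of 26 genes of other duplicated families, 6 had a cluster by the same rule, beside 7.04% of protein-coding genes. For CROCCP2 and MST1L these were clusters of the NBPF1 locus, which leaves 4 genes and 3 clusters. The golgin genes GOLGA6C and GOLGA6D shared a 210 bp cluster at chr15:75567051-75567260, in both MCFDCIS-named lists, with 3 other matches of its central 100 bases and 0 of its central 500. NPIPA1, of the nuclear pore complex interacting protein family, had a 10 bp cluster at chr16:15069801-15069810, 38.5 kb from its start, in both MCF10A-named lists, with 1 other match of its central 100 and of its central 500 bases. SRGAP2, a regulator of neuronal migration with human-specific partial copies, had a 60 bp cluster at chr1:206571251-206571310 in the MCFDCIS-named parental list, with 0 other matches of its central 100 bases and 1 of its central 500. Each of the golgin and NPIPA1 clusters was thus in the D4 and parental list of 1 line name.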
